A study of Mus musculus with 1457 samples.

Results

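Mesenchymal cells from around the dorsal aorta of mouse embryos at E10.5 were compared between embryos in which both Runx1b alleles carry a red fluorescent reporter (KO) and embryos of the same stage in which 1 allele carries it (het). The comparison holds 72 KO cells and 91 het cells of the 1457 single cells of the series, chosen by the genotype and gate in the labels and by the filters given below. KO cells have the genotype Runx1b:RFP/RFP and het cells Runx1b:RFP/WT, both on the outbred ICR strain, and both were taken from the aorta-gonad-mesonephros region, where the first blood stem cells form. All cells came through the gate named FACS-Mes, which took cells positive for the RUNX1b reporter and negative for TER119, CD41, CD45, KIT and CDH5, so both genotypes were selected on the reporter and cells with 2 intact alleles are not among them. Libraries were made cell by cell with a modified Smart-seq2 protocol, which reads full-length transcripts and counts reads, not molecules.

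RUNX1 is a DNA-binding transcription factor that works with its partner CBFB. The mouse gene has a distal and a proximal promoter, and the Runx1b transcripts start at the proximal one. In endothelium RUNX1 is needed for the change of hemogenic endothelial cells into blood, and in blood it takes part in the macrophage and other lineages. The mesenchyme under the aorta supplies ligands to the emerging blood cells, and part of it also carries RUNX1.

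Of the sorted cells, 19 of 91 KO cells were left out, and 16 het cells were left out beside the 91 kept. Among KO cells 5 had under 100000 reads, 13 had reads of 5 or more of 8 endothelial genes (14.3% of those sorted) and 1 had 1% or more globin reads. Among het cells 1 had too few reads, 5 had endothelial reads (4.67%) and 10 had globin reads. All 16 het cells left out had title numbers below 600. The KO cells kept had 183033 to 1170242 reads (median 542432) and the het cells 222256 to 957011 (median 625872), for 42751715 reads in KO and 55445781 in het.

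No label names an embryo, litter or culture, so each genotype counts as 1 sample, no test of KO against het can be made, and no p-value is given. Levels are reads summed over the cells of a genotype per 1000000 reads (CPM), and the intervals are exact 95% intervals (Poisson for sums, Clopper-Pearson for shares) that cover counting error only. In such sums, fewer cells of a type and less RNA per cell cannot be told apart, which is why shares of cells stand beside the levels of the main genes. Shares marked as thinned were taken after every cell was reduced to 100000 reads.

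Each cell has a number in its title, and the numbers fall into 2 ranges. Below 600, the low range, runs of KO and het numbers alternate (38 KO and 29 het cells kept). Above 600, the high range, they do not alternate, and all 62 het cells have lower numbers than all 34 KO cells. Within the high range genotype and title number thus cannot be told apart. The labels do not say what the numbers stand for, and values within both ranges are therefore also given for part of the genes. The sex of the embryos by reads moves with the genotype as well. Reads of Ddx3y, Eif2s3y, Kdm5d or Uty, which lie on the Y chromosome, were found in 39 of 72 KO cells and 19 of 91 het cells. Within the low range this was 26 of 38 KO cells and 1 of 29 het cells, and within the high range 13 of 34 KO cells and 18 of 62 het cells. The part of sex and of the title-number ranges in the results below was not tested, and values within each are given for part of the genes.

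Runx1 itself was read in both genotypes. The 2 windows below, 250 bases before to 50 bases after the annotated starts, are shown because the reporter marks the product of the second of them, while the deposited counts add reads from both starts (RefSeq promoters, build GRCm38.p6, chr16:92826025-92826324 and chr16:92697280-92697579, minus strand). Capitals mark the RUNX-type letters TGTGGT and the letters GAGGAA, a core bound by the macrophage factor PU.1, on either strand. The starts lie 128745 bases apart.
Runx1 distal: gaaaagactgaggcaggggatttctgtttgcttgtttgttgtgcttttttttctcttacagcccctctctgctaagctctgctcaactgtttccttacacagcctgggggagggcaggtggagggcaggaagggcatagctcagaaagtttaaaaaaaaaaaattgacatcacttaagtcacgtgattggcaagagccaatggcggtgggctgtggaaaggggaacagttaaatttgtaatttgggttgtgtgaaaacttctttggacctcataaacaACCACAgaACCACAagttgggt
Runx1 proximal: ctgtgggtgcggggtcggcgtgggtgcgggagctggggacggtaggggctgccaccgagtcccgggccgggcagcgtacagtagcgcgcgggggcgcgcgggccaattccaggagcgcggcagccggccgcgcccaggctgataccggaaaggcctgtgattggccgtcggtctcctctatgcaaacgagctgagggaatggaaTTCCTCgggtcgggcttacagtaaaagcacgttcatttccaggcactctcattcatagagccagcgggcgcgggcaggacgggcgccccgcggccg
The distal window holds the RUNX-type letters 2 times and the proximal window does not hold them. Of 32851 such mouse windows, 16.8% hold TGTGGT and 28.3% hold GAGGAA on either strand, and a match of letters is a description, not a binding site.

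Runx1 (chr16:92601466-92826149 in GRCm38, minus strand) stood at 23.5 CPM in KO cells (22.1 to 25.01) and 41.2 CPM in het cells (39.5 to 42.9), a log2 ratio of -0.81, which is under the 2-fold used here. Reads of it were found in 40 of 72 KO cells and 41 of 91 het cells, and thinned in 47.2% of KO cells (35.3 to 59.3%) and 42.9% of het cells (32.5 to 53.7%). Per cell the KO values ran from 0 through a median of 6.83 to 129.2 CPM, and the het values from 0 through a median of 0 to 626.7 CPM. So the genotypes overlapped, with the higher single cells among the het ones. Within the low title numbers Runx1 stood at 20.5 CPM in KO and 52.9 CPM in het, and within the high ones at 26.6 CPM in KO and 36.5 CPM in het. Because the counts cover all transcripts of the gene, Runx1 reads in KO cells do not by themselves check the Runx1b label, and reads of the reporter are not analysed here. Its partner Cbfb stood at 68.6 CPM in KO and 96.8 CPM in het, and Runx2, the bone and cartilage paralogue, at 5.10 CPM in 6 KO cells and 12.5 CPM in 6 het cells.

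Most cells had the marks of mesenchyme. A cell was said to bear a marker set when, thinned, it had reads of 3 or more of its markers. The mesenchyme set (Pdgfra, Prrx1, Twist2, Tcf21, Osr1, Col1a1, Col3a1, Dcn) was borne by 65 of 72 KO cells (90.3%, 80.99 to 96.001%) and 70 of 91 het cells (76.9%, 66.9 to 85.1%). The fibrillar collagen genes Col1a1 and Col3a1 stood at 1989 and 2812 CPM in KO and 1951 and 2584 CPM in het. Pdgfra, the receptor for platelet-derived growth factor that marks mesenchyme, stood at 209.1 CPM in KO and 165.5 CPM in het. Of the 21 het cells without the mesenchyme set 13 bore the macrophage set, described next. Without these 13 cells the mesenchyme set was borne in the low range by 33 of 38 KO cells and 15 of 16 het cells.

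**Figure D1:**
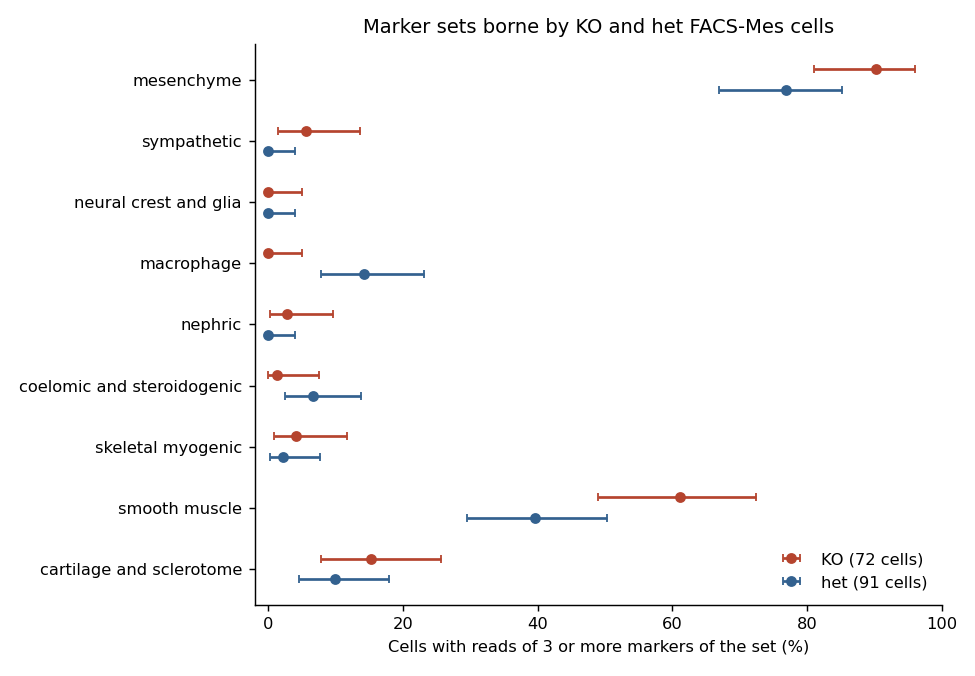
Share of cells (%) that had reads of 3 or more markers of each set after thinning, in 72 KO cells (above) and 91 het cells (below), with exact 95% binomial intervals that cover counting error only. The macrophage set was borne by 13 het cells and no KO cell, and the mesenchyme set by 65 KO and 70 het cells.

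A group of cells with macrophage genes was found in the het sort and not in the KO sort. The macrophage set (C1qa, C1qb, C1qc, Csf1r, Mrc1, Fcgr1, Tyrobp, Fcer1g) was borne by 0 of 72 KO cells (0 to 4.99%) and by 13 of 91 het cells (14.3%, 7.83 to 23.2%). The 13 cells each had 7 or 8 of the 8 markers, the other het cells had 0 of them after thinning, and in KO 1 cell had 2. All 13 lie in the low title numbers, where they make up 13 of 29 het cells (44.8%) against 0 of 38 KO cells. In the high title numbers the set was borne by 0 of 34 KO cells (0 to 10.3%) and 0 of 62 het cells (0 to 5.78%). With no cell left out of the sort the set was borne by 0 of 91 KO cells and again by 13 het cells. Cells under 100000 reads (5 KO cells and 1 het cell) could not be thinned, so they could not bear a set.

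C1qb, a chain of the first complement component made by macrophages, had 0 reads in all 72 KO cells. In the 13 het cells it ran from 82.5 through a median of 1059.8 to 2025 CPM, and it had 0 reads in the other 78 het cells. Summed over all het cells this is 131.1 CPM, so that C1qb was at least 1869-fold lower in KO, taking 3 reads over the KO cells as the floor. C1qb lies at chr4:136880129-136886187 on the minus strand, and the window around its start, shown as the gene that marked these cells, holds the letters GAGGAA once (chr4:136886151-136886450, GRCm38.p6).
C1qb: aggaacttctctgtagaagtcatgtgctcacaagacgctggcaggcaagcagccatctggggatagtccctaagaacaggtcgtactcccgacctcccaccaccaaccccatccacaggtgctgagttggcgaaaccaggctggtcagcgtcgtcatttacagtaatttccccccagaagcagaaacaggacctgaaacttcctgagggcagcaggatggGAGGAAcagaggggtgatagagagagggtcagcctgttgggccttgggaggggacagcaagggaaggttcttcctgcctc

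Ptprc, which encodes the CD45 protein that the gate was meant to exclude, followed the same cells. It had 0 reads in the 72 KO cells and in the other 78 het cells, and it ran from 40.7 through a median of 320.9 to 939.3 CPM in the 13. Spi1, which encodes PU.1, stood at 0.05 CPM in KO cells, 291.7 CPM in the 13 cells and 0 in the other het cells. The chemokine receptor gene Cx3cr1 and the lysozyme gene Lyz2 stood at 542.8 and 735.3 CPM in the 13 cells and had 0 reads in KO and in the other het cells. Mpo, the neutrophil and early myeloid peroxidase, was read in 8 of the 13 cells at 119.8 CPM, and in no KO and no other het cell. The 13 cells had no reads of Pdgfra, Col1a1 or Col3a1, and none of the 8 mesenchyme markers after thinning. Their median number of genes with reads was 6952, against 6898.5 in KO cells and 6296 in the other het cells. By reads of the sex chromosomes 12 of the 13 had Xist reads without Y reads and 1 had Y reads.

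Runx1 was read in 40 of 72 KO cells, in 10 of these 13 het cells and in 31 of the other 78 het cells, at 23.5, 56.3 and 38.9 CPM. Without the 13 cells the log2 ratio of Runx1 was -0.73, and within mesenchyme-set cells it was -0.23, with Runx1 reads in 37 of 65 KO and 25 of 70 het cells. Cbfb stood at 198.7 CPM in the 13 cells and 81.2 CPM in the other het cells, against 68.6 CPM in KO. Runx2 had 0 reads in the 13 cells. In the low range without them it stood at 8.56 CPM in KO and 0 CPM in het, the other direction. Mt1, the metallothionein that binds zinc and copper, stood at 2.81 CPM in KO and 23.6 CPM in het over all cells, a log2 ratio of -3.07. It was read in all 13 macrophage-set cells at 157.2 CPM, and stood at 3.12 CPM in the other het cells, so that its log2 ratio without them was -0.15.

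**Figure D2:**
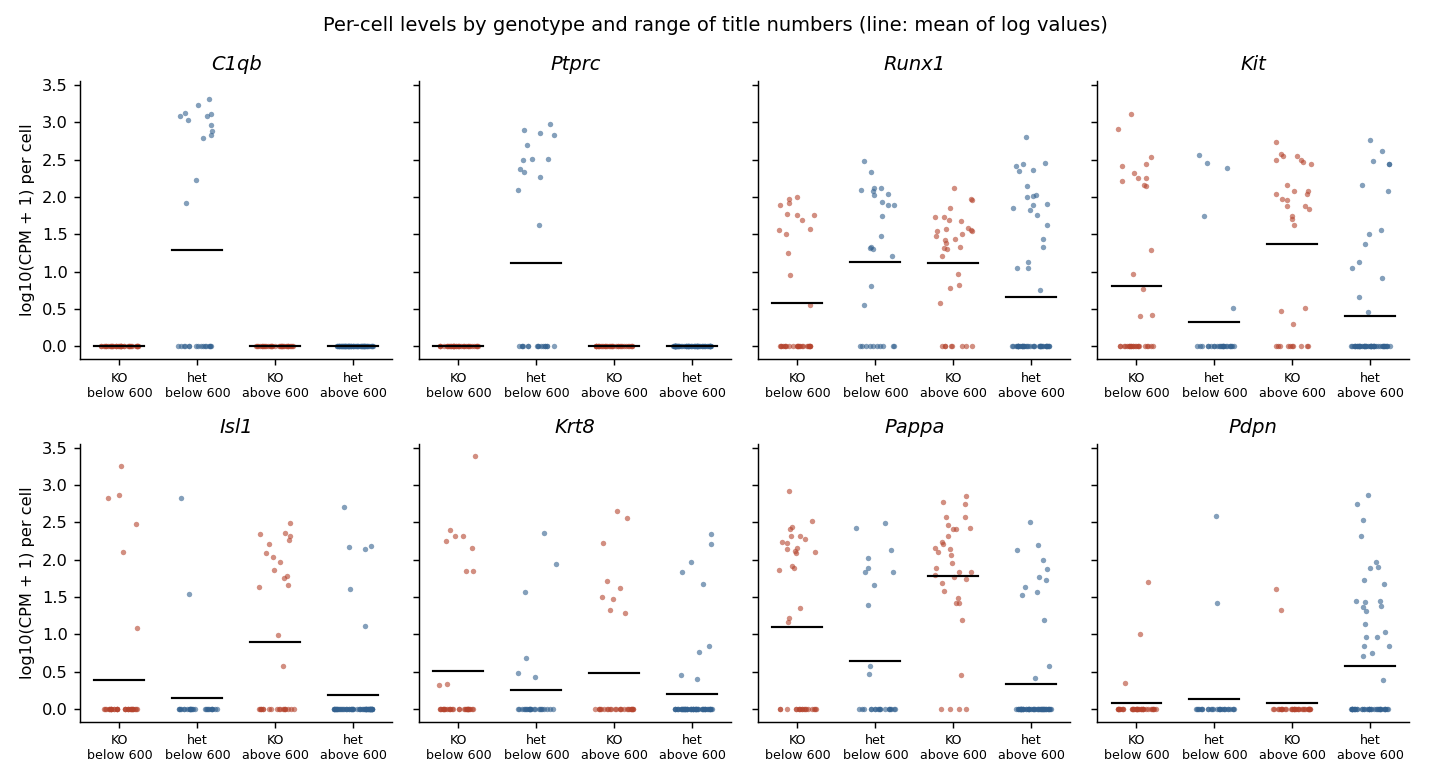
Level of 8 genes in each kept cell, as log10(CPM + 1), for KO (left) and het (right) cells with title numbers below and above 600. Each point is a cell and each line the mean of the log values. C1qb and Ptprc were read in 13 het cells of the low range and no KO cell, Kit and Pappa were read in more KO than het cells in both ranges, and Pdpn mainly in het cells of the high range.

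Across all genes, a gene counted when it had at least 20 CPM in the higher genotype with reads in at least 25% of its cells, which 8248 genes met. It was said to be higher or lower past 2-fold when both the sums and the means of per-cell CPM differed at least 2-fold. In KO 150 genes were higher (1.82%) and 2.36% of the genes were lower. Within the ranges taken one by one, 40 genes were at least 2-fold higher and 40 at least 2-fold lower in both. In the low range 10.1% of the 8248 genes were higher in KO and 5.78% lower, and in the high range 2.73% were higher and 4.68% lower. The 40 shared higher genes are 4.80% of those in the low range and 17.8% of those in the high range, and the 40 shared lower genes 8.39% and 10.4%. Of the genes higher in the low range 12.1% were lower in the high range, and of those lower in the low range 2.73% were higher in the high range. Over the 8248 genes the log2 ratios of the 2 ranges, which share no cells, had a Pearson r of -0.04. Without the macrophage-set cells 26 genes were higher and 14 lower in both ranges, and r was -0.07. These are 3.47% of the genes higher and 4.98% of those lower in the low range. Of all 8248 genes, 2.73% were higher and 4.68% lower in the high range, which is near those shares.

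**Figure D3:**
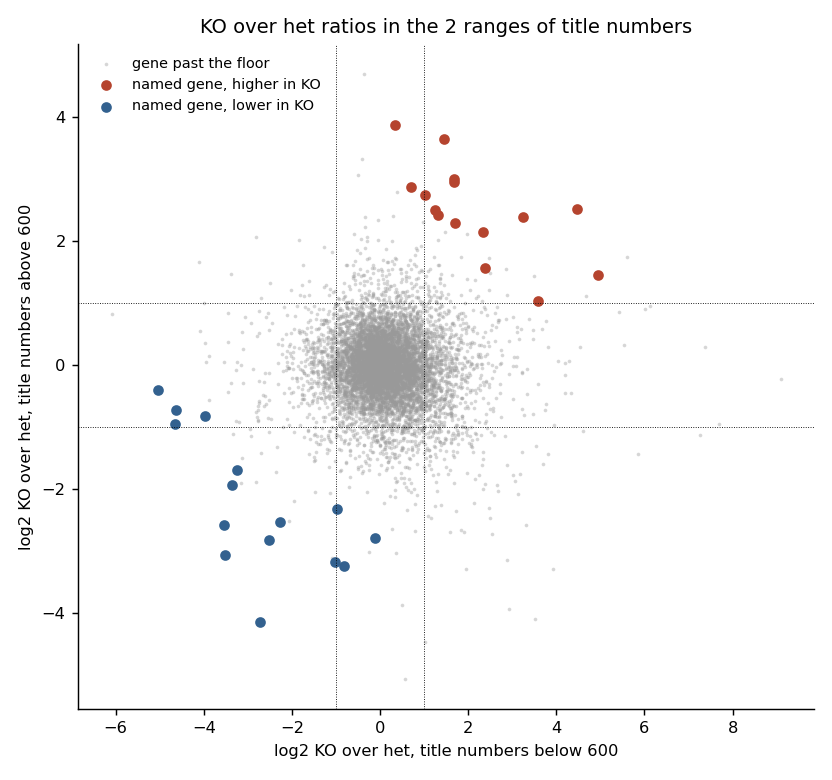
Log2 ratio of KO over het CPM for 8248 genes for cells with title numbers below 600 (x axis) and above 600 (y axis), with dotted lines at 2-fold. The 30 genes drawn in colour were chosen for the same direction in both ranges, and the cloud as a whole shows no shared slope (Pearson r -0.04).

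The rule for named genes gave 30 genes, the 15 highest and the 15 lowest of those past 2-fold that kept their direction in both ranges, so their size is a description. The choice of cells matters to them in unlike ways. Without the 13 macrophage-set cells all 15 higher genes and 11 of the 15 lower ones stayed past 2-fold by sums, and within the 65 KO and 70 het cells that bear the mesenchyme set 25 of the 30 did. The direction in the low range, which the rule used, rested for 11 of the 30 on the macrophage-set cells. With the 38 KO cells set against the 16 other het cells of that range, 19 of the 30 kept their direction, 11 of them at 2-fold or more, and Hapln1, Dusp9, Lpl, Etv5, Mtus1, Gas7, Apoe, Zfp36, Celf2, Tnnt1 and Fosb turned round. Those that kept their direction but fell under 2-fold included Pappa, Shisa3, Fgfr3, Sall4, Acta1, Ccdc42 and Slc1a5. Within those mesenchyme-set cells 1.52% of the 8248 genes were higher in KO and 2.02% were lower.

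**Figure D4:**
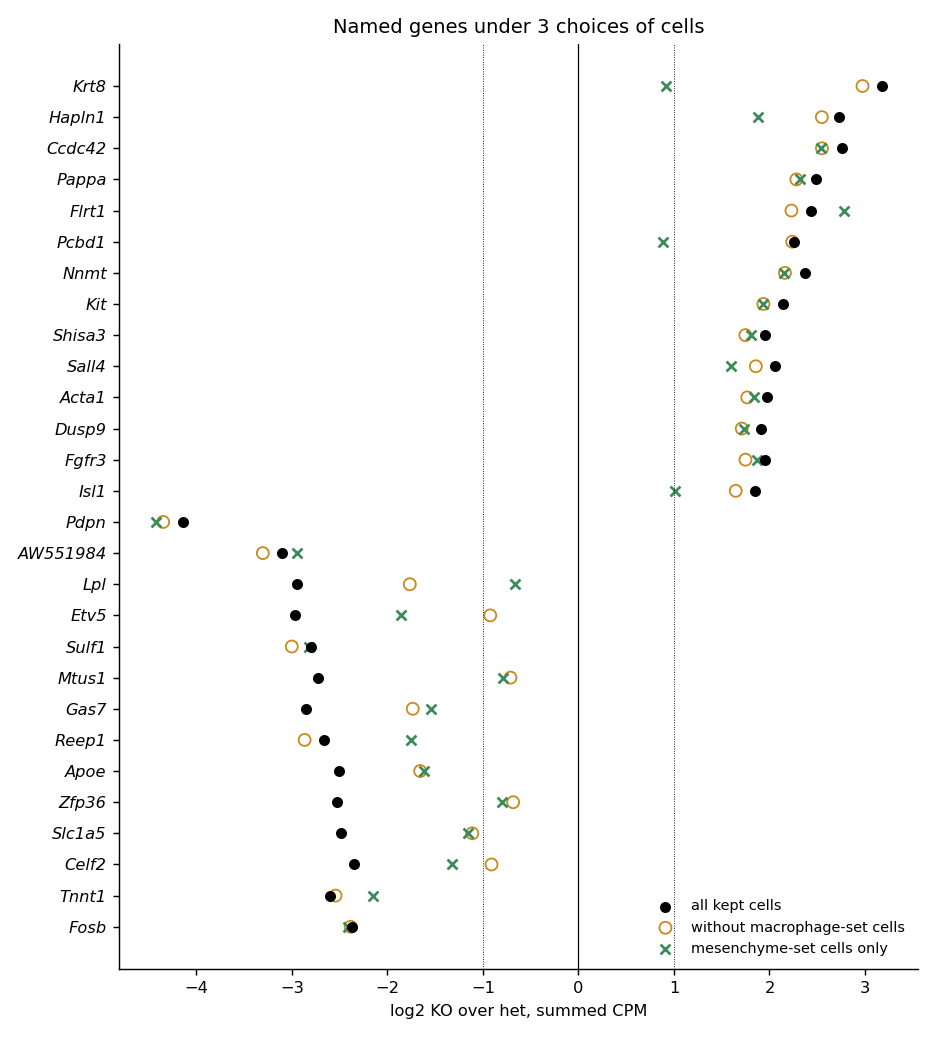
Log2 ratio of KO over het CPM for 28 of the 30 genes chosen by the rule over all kept cells (filled), without the 13 het cells of the macrophage set (rings) and within the 65 KO and 70 het cells of the mesenchyme set (crosses), with dotted lines at 2-fold. Kit, Pappa, Shisa3, Pdpn and Sulf1 stay past 2-fold under each of these choices, and Lpl, Mtus1, Zfp36, Krt8 and Pcbd1 fall inside 2-fold within mesenchyme-set cells. Not drawn is the low range, where Sulf1 falls inside 2-fold. Pappa and Shisa3 do so there without the macrophage-set cells (log2 0.78 and 0.80).

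Pappa, a protease that frees insulin-like growth factor from its binding proteins (chr4:65124174-65357509), stood at 126.8 CPM in KO (123.4 to 130.2) and 22.6 CPM in het (21.4 to 23.9). Its median per cell was 67.2 CPM in KO, with a highest cell of 822.9, and 0 CPM in het, with a highest cell of 315.9. Thinned, it was read in 66.7% of KO cells (54.6 to 77.3%) and 24.2% of het cells (15.8 to 34.3%). The log2 ratio was 1.69 in the low range and 3.005 in the high one, and in the low range without the macrophage-set cells Pappa stood at 107.5 CPM in KO and 62.6 CPM in het. Of the 50 KO cells with Pappa reads 49 bore the mesenchyme set.

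Kit, the receptor for stem cell factor (chr5:75574916-75656722), was higher in KO although the gate took KIT-negative cells of both genotypes. It stood at 123.04 CPM in KO (119.7 to 126.4) and 27.9 CPM in het (26.5 to 29.3), a log2 ratio of 2.14 (2.06 to 2.22). Thinned, it was read in 48.6% of KO cells (36.7 to 60.7%) and 18.7% of het cells (11.3 to 28.2%). The highest cell had 1277.3 CPM in KO and 567.9 CPM in het, and the median was 2.14 CPM in KO and 0 in het. Of the 40 KO cells with Kit reads 38 bore the mesenchyme set, and of the 20 het cells 17 did. Within the low title numbers Kit stood at 114.5 CPM in KO and 22.8 CPM in het, and within the high ones at 132.1 CPM in KO and 29.9 CPM in het. The 16 het cells of the low range without the macrophage set had 42.6 CPM, so that Kit was higher in KO there too (log2 1.42). Among Y-read cells it was 131.8 CPM in KO and 8.34 CPM in het, and among Xist-read cells 120.2 CPM in KO and 34.2 CPM in het. Of the other gate genes, Cdh5 stood at 0.02 CPM in KO and 0.25 CPM in het, and Itga2b, which encodes CD41, at 0.14 CPM in KO and 0.79 CPM in het. The gene of the KIT ligand, Kitl, stood at 13.5 CPM in KO and 31.1 CPM in het.

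Shisa3, of a family that holds back Wnt and FGF receptors, stood at 150.2 CPM in KO and 38.8 CPM in het and was read in 49 KO and 30 het cells. In the low range without the macrophage-set cells Shisa3 stood at 96.5 CPM in KO and 55.3 CPM in het. The FGF receptor gene Fgfr3 stood at 26.8 CPM in KO and 6.91 CPM in het. Dusp9, a phosphatase that switches off MAP kinases, stood at 83.997 CPM in KO and 22.3 CPM in het. Flrt1, a leucine-rich repeat surface protein, stood at 22.9 CPM in KO and 4.24 CPM in het. Hapln1, the link protein of hyaluronan matrix, stood at 34.1 CPM in KO and 5.16 CPM in het, with a ratio near 1 in the low title numbers (log2 0.34) and 3.86 on the log2 scale in the high ones.

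Isl1, a LIM-homeodomain factor of several progenitor types, stood at 63.1 CPM in KO (60.7 to 65.5) and 17.5 CPM in het (16.4 to 18.6). It was read in 22 KO cells, with a highest cell of 1762 CPM, and 8 het cells, with a highest cell of 665.008 CPM, and the median was 0 in both. Within mesenchyme-set cells its log2 ratio was 1.01. Sall4, a zinc-finger factor of early embryonic cells, stood at 30.8 CPM in KO and 7.39 CPM in het. Gata3, a zinc-finger factor of sympathetic, kidney and blood lineages, stood at 78.2 CPM in KO and 24.3 CPM in het. It was higher in both ranges (log2 1.96 and 2.11, and 1.06 in the low range without the macrophage-set cells). Within mesenchyme-set cells the log2 ratio was 0.60. Among Y-read cells Gata3 ran the other way, at 43.1 CPM in KO and 77.8 CPM in het. It comes from the sympathetic list and was named after its value was seen.

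The remaining higher genes were of mixed kinds. Krt8, a keratin of simple epithelia (chr15:101996698-102004482), stood at 65.8 CPM in KO and 7.27 CPM in het. Its reads were held by 19 KO and 15 het cells, with a highest KO cell of 2406 CPM and a highest het cell of 229.2 CPM. Within mesenchyme-set cells Krt8 stood at 10.02 CPM in KO and 5.33 CPM in het. Pcbd1, a pterin enzyme that also assists HNF1 factors, stood at 49.5 CPM in KO and 10.4 CPM in het. Acta1, the skeletal muscle actin gene, stood at 69.7 CPM in KO and 17.8 CPM in het. Nnmt, which methylates nicotinamide, stood at 21.3 CPM in KO and 4.13 CPM in het, and Ccdc42, a coiled-coil protein known from sperm tails, at 25.7 CPM in KO and 3.81 CPM in het.

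Of the lower genes, those with the strongest ratios within mesenchyme-set cells stood highest in het cells of the high title numbers. Pdpn, the mucin-type glycoprotein podoplanin (chr4:143267431-143299564), stood at 1.94 CPM in KO (1.55 to 2.41) and 34.3 CPM in het (32.8 to 35.9). It was read in 5 of 72 KO cells and 26 of 91 het cells, of which 2 of 34 KO and 24 of 62 het cells lay in the high range. Reads were found in 3 of 38 KO and 2 of 29 het cells of the low range, at 1.41 CPM in KO and 9.38 CPM in het. Pdpn was thus lower in KO there too (log2 -2.73, and -3.64 without the macrophage-set cells), through few cells. Sulf1, which removes sulfate from heparan sulfate at the cell surface (chr1:12692277-12861192), stood at 25.8 CPM in KO and 179.6 CPM in het. In the high range Sulf1 stood at 49.6 CPM in KO and 248.3 CPM in het, with reads in 16 of 34 KO and 41 of 62 het cells. In the low range it was scarce in both, at 3.37 CPM in KO and 6.66 CPM in het. AW551984 stood at 4.65 CPM in KO and 39.9 CPM in het, and Reep1, which shapes endoplasmic reticulum, at 12.3 CPM in KO and 77.9 CPM in het. Both differed strongly in the high range (log2 -3.18 and -2.79). In the low range AW551984 was lower too (log2 -1.02, and -1.93 without the macrophage-set cells). Reep1 was inside 2-fold in the low range, and past it there without those cells. Tnnt1, the slow muscle troponin T, stood at 3.39 CPM in KO and 20.6 CPM in het, and was lower in each range (log2 -2.26 and -2.53), but not in the low range without the macrophage-set cells, where it stood at 2.73 CPM in KO and 1.90 CPM in het.

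Most other lower genes had much of their het reads in the macrophage-set cells. These 13 cells held 79% of the het reads of Etv5, an ETS factor, 78.5% of those of Mtus1, 75.8% of those of Zfp36, which promotes decay of messenger RNA, and 67.997% of those of the RNA-binding protein Celf2. Without them the log2 ratios of these 4 genes were -0.92, -0.71, -0.68 and -0.91, all inside 2-fold. The 13 cells also held 66.6% of the het reads of the amino acid transporter Slc1a5, 61.8% of those of lipoprotein lipase (Lpl), 60.03% of those of Gas7 and 51.7% of those of Apoe, the lipid carrier that macrophages make in quantity. Apoe stood at 31.7 CPM in KO and 179.9 CPM in het over all cells, and at 100.1 CPM in het without the 13 cells. Without them it ran the other way in the low range, at 31.9 CPM in KO with reads in 19 of 38 cells and 1.07 CPM in het with reads in 1 of 16 cells. Within mesenchyme-set cells Apoe stood at 33.01 CPM in KO and 101.3 CPM in het, and Lpl at 10.9 CPM in KO and 17.3 CPM in het.

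Immediate early genes, which are switched on within minutes of a stimulus or of tissue handling, were lower in KO over all cells and in the high range, and not in the low range once the macrophage-set cells were left out. The stress and immediate early list had 16 measured genes, 0 of them at least 2-fold higher and 8 lower, with a median log2 ratio of -0.96. Over all 19530 genes with more than 3 reads in either genotype 16.6% were at least 2-fold higher and 16.3% lower by sums alone. Fos, a subunit of the AP-1 factor, stood at 130.9 CPM in KO and 567.1 CPM in het and was read in 35 KO and 60 het cells. In the high range it stood at 73.1 CPM in KO and 634.8 CPM in het. In the low range it stood at 185.7 CPM in KO and 396.8 CPM in het, and without the macrophage-set cells at 185.7 CPM in KO and 35.3 CPM in het, the other direction. For the whole list, the low range without those cells gave a median of 0.83, with 7 genes at least 2-fold higher and 0 lower and summed levels of 1064.2 CPM in KO and 672.7 CPM in het. In Y-read cells the median of the list was 0.38. Fosb stood at 8.37 CPM in KO and 43.4 CPM in het, Junb at 26.9 CPM in KO and 77.6 CPM in het, and the phosphatase gene Dusp1 at 122.9 CPM in KO and 301.7 CPM in het. Egr1, a zinc-finger factor, stood at 75.9 CPM in KO and 263.2 CPM in het over all cells, but at 126.2 CPM in KO and 89.7 CPM in het in the low range. Within mesenchyme-set cells 7 of the 16 were at least 2-fold lower. Not every member followed, since Jun stood at 190.6 CPM in KO and 175.96 CPM in het. Among Y-read cells Junb stood at 27.5 CPM in KO and 20.4 CPM in het and Dusp1 at 130.2 CPM in KO and 65.6 CPM in het, so that the 2 genes were not lower there, and among Xist-read cells they stood at 26.7 and 109.96 CPM in KO and 95.9 and 374.1 CPM in het.

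Mesenchymal genes themselves stood at like levels. The mesenchyme list had 24 measured genes, 4 of them at least 2-fold higher in KO (16.6% of all measured genes were) and 0 lower (16.3% of all), with a median log2 ratio of 0.12. The 4 were Dlk1, Prrx2, Postn and Tcf21. Dlk1, a paternally expressed membrane protein of the Notch ligand type, stood at 332.01 CPM in KO and 115.1 CPM in het and was higher in both ranges (log2 1.21 and 1.74, and 0.31 in the low range without the macrophage-set cells). Postn, the matrix protein periostin, stood at 639.95 CPM in KO and 304.05 CPM in het (log2 -0.73 in the low range without those cells), and the homeobox gene Prrx2 at 80.1 CPM in KO and 36.4 CPM in het. Tcf21, a bHLH factor, stood at 15.7 CPM in 7 KO cells and 1.26 CPM in 4 het cells. In the low range, where 13 of 29 het cells bore the macrophage set, the list's median was 1.18, and within mesenchyme-set cells of both ranges it was -0.08.

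The share of cells with smooth muscle markers differed between the genotypes in ways that depended on the range. The smooth muscle set (Acta2, Tagln, Myh11, Cnn1, Actg2) was borne by 44 of 72 KO cells (61.1%, 48.9 to 72.4%) and 36 of 91 het cells (39.6%, 29.5 to 50.4%). In the low range this was 21 of 38 KO and 13 of 29 het cells, and in the high range 23 of 34 KO and 23 of 62 het cells. Without the macrophage-set cells the low range had the larger share in het, with 21 of 38 KO cells (55.3%) and 13 of 16 het cells (81.2%), and the median of the smooth muscle and pericyte list there was -0.56. The level of the genes differed less than the share of cells, and 0 of the 15 measured members of the smooth muscle and pericyte list were at least 2-fold higher (16.6% of all measured genes were). Acta2, the smooth muscle actin, stood at 5565 CPM in KO and 4294 CPM in het, and Myh11, the smooth muscle myosin, at 120.9 CPM in 34 KO cells and 134.4 CPM in 21 het cells.

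Among ligands that mesenchyme offers to blood stem cells the counts lay near those of all genes. In that list 26 genes were measured, 5 of them at least 2-fold higher in KO (16.6% of all measured genes were) and 6 lower (16.3% of all), with a median log2 ratio of 0.35. Ptn, the growth factor pleiotrophin, stood at 43.5 CPM in KO and 227.97 CPM in het, and Igf1 at 33.3 CPM in KO and 125.1 CPM in het. Both ran the other way in the low range, where Ptn stood at 38.6 CPM in KO and 12.9 CPM in het and Igf1 at 40.4 CPM in KO and 6.97 CPM in het. Sfrp1, a secreted Wnt antagonist, did the same, at 129.4 CPM in KO and 301.6 CPM in het over all cells and 178.1 CPM in KO and 53.8 CPM in het in the low range. Angpt1, the ligand of the endothelial receptor TIE2, stood at 11.7 CPM in KO and 3.57 CPM in het. It was higher in both ranges (log2 2.86, with the macrophage-set cells counted, and 1.49). Igf2 stood at 4235 CPM in KO and 2610 CPM in het.

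In the list of imprinted growth genes 16 genes were measured, 4 of them at least 2-fold higher in KO (16.6% of all measured genes were) and 1 lower (16.3% of all), with a median log2 ratio of 0.58. Besides Dlk1 the 4 were Peg10, at 80.7 CPM in KO and 27.5 CPM in het, the maternally expressed RNA gene Meg3, at 493.1 CPM in KO and 226.04 CPM in het, and Gnas, at 17.9 CPM in KO and 6.31 CPM in het. The sources used here do not give the strand used in counting, so reads of Meg3 and Gnas cannot be told apart from those of overlapping antisense transcripts. Within mesenchyme-set cells the median of the list was 0.37 and 2 of the 16 were at least 2-fold higher. Without the macrophage-set cells the median in the low range was -0.05, with 1 gene higher and 2 lower. Of 33 measured Hox genes 9 were at least 2-fold higher in KO and 5 lower, with a median of 0.24, and among them Hoxb9 stood at 48.3 CPM in KO and 19.8 CPM in het and ran the other way in the low range without the macrophage-set cells (log2 -0.64). Hoxc5 stood at 38.5 CPM in KO and 92.96 CPM in het over all cells and ran the other way in the low range (log2 0.76).

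**Figure D5:**
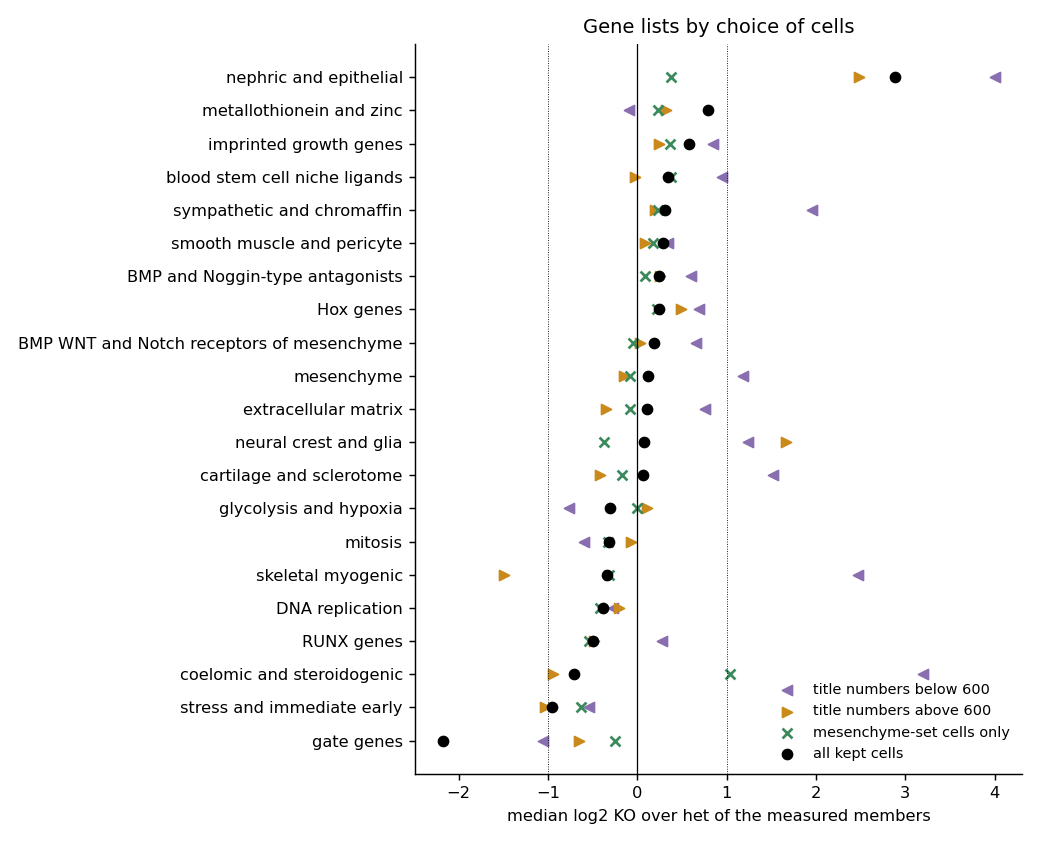
Median log2 ratio of KO over het for the measured members of 21 gene lists over all kept cells, within each range of title numbers and within mesenchyme-set cells, with dotted lines at 2-fold. The nephric and epithelial list stands at 2.89 over all cells and 0.37 within mesenchyme-set cells, and the macrophage list is left out because its reads come from 13 het cells.

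Epithelial and kidney-duct genes were higher in KO through few cells. The nephric and epithelial list had 18 measured genes, 14 of them at least 2-fold higher (16.6% of all measured genes were) and 2 lower (16.3% of all). Its median log2 ratio was 2.89, with summed levels of 374.9 CPM in KO and 90.7 CPM in het. The 5 richest cells held 68.4% of the list's reads in KO and 32.3% in het. Krt18, the keratin partner of Krt8, stood at 65.05 CPM in 14 KO cells and 7.95 CPM in 7 het cells. The epithelial cadherin gene Cdh1 stood at 16.96 CPM in 7 KO cells and 0.02 CPM in 1 het cell, and the tight junction gene Cldn6 at 40.2 CPM in 8 KO cells and 0.52 CPM in 1 het cell. The nephric set was borne by 2 of 72 KO cells, both in the high range, and 0 of 91 het cells, and neither of the 2 bore the mesenchyme set. Within mesenchyme-set cells the median of the list was 0.37, with 3 of 15 measured members at least 2-fold higher and 4 lower.

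Few cells bore the sympathetic or the coelomic and steroidogenic set. The sympathetic set was borne by 4 of 72 KO cells (5.56%, 1.53 to 13.6%) and 0 of 91 het cells (0 to 3.97%), each of the 4 with exactly 3 markers, and the defining gene Dbh had 0 reads in both genotypes. Th, the first enzyme of catecholamine synthesis, and Chga, a secretory granule protein, had reads in 4 KO cells each, all of the low range, and 0 het cells. Ret, the receptor for GDNF-type ligands, stood at 33.005 CPM in 4 KO cells and 0.63 CPM in 1 het cell. Its highest cell had 1231.8 CPM in KO and 47.5 CPM in het, and none of the 4 KO cells bore the mesenchyme set. In the other direction Nr5a1, the master factor of gonad and adrenal, had 0 reads in KO and 30.7 CPM in 6 het cells, all of the high range. The coelomic and steroidogenic set was borne by 1 of 72 KO cells and 6 of 91 het cells, and 5 of these 6 had Y reads. Wt1, a factor of the coelomic lining, stood at 21.4 CPM in 13 KO cells and 74.2 CPM in 18 het cells. The list of such genes did not go one way. Of its 11 measured genes 3 were at least 2-fold higher in KO (Upk3b, Tcf21 and Msln) and 4 lower. Over all measured genes 16.6% were higher and 16.3% lower. The list's median log2 ratio was 3.20 in the low range (summed 75.4 CPM in KO, 22.4 CPM in het). In the high range it was -0.94.

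The skeletal myogenic set was borne by 3 of 72 KO and 2 of 91 het cells, and the cartilage and sclerotome set by 11 of 72 KO cells (15.3%) and 9 of 91 het cells (9.89%). The neural crest and glia set was borne by no cell of either genotype. The list counts that follow stand beside 16.6% of all measured genes at least 2-fold higher and 16.3% lower by the same rule. Among the remaining lists, 0 of 20 DNA replication genes and 0 of 20 mitosis genes were 2-fold higher or lower, with medians of -0.38 and -0.32. The proliferation marker Mki67 stood at 289.04 CPM in KO and 405.3 CPM in het. Of 20 extracellular matrix genes 0 were higher and 1 was lower (Eln, elastin, at 12.7 CPM in KO and 67.1 CPM in het, with the other direction in the low range, log2 0.79). Of 19 BMP pathway genes 1 was higher and 1 lower, and of 18 Wnt and Notch genes 1 was higher and 3 were lower. Of 20 glycolysis and hypoxia genes 1 was higher and 2 were lower, and without the macrophage-set cells the 2 lower ones, Hk2 and Pfkp, had log2 ratios of -0.57 and -0.88. The macrophage list had 18 measured genes, all of them lower in KO, with summed levels of 5.29 CPM in KO and 1179.8 CPM in het. The other cell-type lists were mixed, with 8 higher and 4 lower of 20 sympathetic genes, 5 and 2 of 11 neural crest genes, 3 and 4 of 11 coelomic genes, 2 and 4 of 12 myogenic genes and 2 and 0 of 7 cartilage genes. Of 7 metallothionein and zinc genes 2 were higher and 1 lower, and of the 7 RUNX genes and partners 0 were higher and 1 was lower.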

How the data were processed

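Values are read counts per gene and cell, which the authors deposited as 1 table of raw counts. The submitters' processing notes name STAR 2.4.2a and HTSeq 0.6.1p1, besides bcl2fastq and R 3.6.2, and the build GRCm38. For the annotation release, the strand setting and the authors' own cell filter the answer is the same: not given in the sources used here. Columns were mapped to FACS-Mes samples by their titles, and 1090 other cell columns were not used. The table as held has 36131 whole gene rows, and genes after these are not analysed here. The planned view of the Runx1b-line endothelial gate is not analysed here either.

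Cells were filtered as described in the results, reads were summed per genotype and divided by the total, and sums under 3 reads were set to 3 for ratios. Thinning to 100000 reads used 1 fixed seed. Python 3.11.15, numpy 2.4.6 and scipy 1.17.1 gave the values, and edgeR 4.0.16 and DESeq2 1.42.0 gave alternative scalings of the sums. The steps were checked on simulated data. Lists count a gene as higher or lower at 2-fold by sums, among genes with over 3 reads in either genotype. Coordinates are from GENCODE M21 on GRCm38.

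The members, gene lists and marker sets were chosen with earlier results of these data known. The rule for named genes took the 15 highest and 15 lowest ratios with 1 CPM added, past 2-fold and with the same direction in both ranges of title numbers, without mitochondrial, ribosomal, Gm, Rik, pseudogene and sex-linked genes. It also took the RUNX, gate and given marker genes (C1qb, Isl1, Mt1, Ret), from every list at most 6 genes by size of ratio, and the members of marker sets. Other list members named in the text were picked after their values were seen. Some genes that the rule or the marker sets hold are not reported here.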

Additional observations from a re-analysis of the deposited data

How the results depend on the processing

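The 30 genes chosen by the rule for named genes kept their direction under the alternatives run, with 1 exception. For the 2 ranges the rule itself fixed this. TMM and DESeq2 scaling shifted every log2 ratio by about 0.01, which could not turn these genes. The other alternatives share cells with the comparison that chose the genes, so a kept direction says little. The exception was in the low range. Below title number 600 without macrophage-set cells 11 turned round, with log2 ratios of -0.49 (Hapln1), -0.20 (Dusp9), 1.19 (Lpl), 0.87 (Etv5), 1.23 (Mtus1), 3.83 (Gas7), 4.90 (Apoe), 0.23 (Zfp36), 1.51 (Celf2), 0.52 (Tnnt1) and 4.95 (Fosb). In the same cells list members turned round too, with Postn at -0.73, Fabp7 at -0.53, Fos at 2.396, Egr1 at 2.54, Ier2 at 0.27, Ptn at 0.67, Igf1 at 6.41, Hoxb9 at -0.64, Hoxd9 at -0.22 and Sfrp1 at 0.82, as did the medians of the gate genes (0.52) and the macrophage list (2.24). Among the genes past the floor of each setting, 1.82% were at least 2-fold higher in KO and 2.36% lower over all kept cells. These counts stayed within 1.5 times with no cell left out (2.16% and 1.75%), with TMM (1.83% and 2.32%) or DESeq2 scaling (1.84% and 2.30%), without the cells of 7 other marker sets (1.90% and 2.58%) and without macrophage-set cells (1.497% and 2.17%). They moved by more below title number 600 (9.58% and 9.31%), there without macrophage-set cells (8.36% and 4.68%), above 600 (3.27% and 5.11%), in Y-read cells (9.78% and 10.3%), in Xist-read cells (2.93% and 4.09%), with no floor (15.1% and 14.9% of 19530 genes) and at 3-fold (0.40% and 0.70%). The ranges and sexes hold fewer cells. The genes behind the counts changed more than the counts did. Without the cells of 7 other marker sets, 79 of the higher genes and 90 of the lower genes were called again. Of the higher genes 87 were called again with no cell left out, and 92 without macrophage-set cells. Many lower genes dropped out in these settings too. With TMM or DESeq2 scaling every higher gene and nearly every lower gene was called again. Het cells of the macrophage set made up 14.3% over all, 44.8% below 600, 0.0% above 600 and 5.26% in Y-read cells.

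Below 600 the log2 ratios of Egr1 (0.49), Ptn (1.58), Igf1 (2.54), Hoxc5 (0.76), Sfrp1 (1.73) and Sfrp2 (0.65) turned round, as did Sfrp2 in Xist-read cells (0.68). The cause was not tested. The median of the macrophage list turned to 2.27 without the cells of the 7 sets (4 genes measured), 3.79 without macrophage-set cells (5 genes) and 0.40 in mesenchyme-set cells (4 genes). The views without macrophage-set or nephric-set cells, in either range, and within mesenchyme-set cells were chosen after seeing the data. No paired analysis was possible because each genotype is 1 sample of cells and no label pairs them.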

Other observations

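Outside the named genes, those given here were at least 2-fold apart in both ranges of title numbers and kept that without the macrophage-set cells. They were picked after their values were seen. Over all genes past the floor, 26 were higher and 14 lower in both ranges without those cells. That is 3.47% and 4.98% of those past 2-fold below 600, near the 2.73% and 4.68% of all genes above 600. Frzb, a secreted Wnt antagonist, and Ntrk2, the receptor for brain-derived neurotrophic factor, were higher in KO, with log2 ratios of 2.22 and 1.98 below 600, 1.31 and 1.08 there without the macrophage-set cells, and 1.11 and 1.38 above 600. Ifnar2, a subunit of the interferon receptor, was lower in KO, with log2 ratios of -1.96, -1.02 and -2.19 in the same order.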
